A study of Mus musculus with 6 samples.

Results

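The matrix metalloproteinases and their inhibitors were examined in mouse fibroblasts that had been given TGF-β1 with or without an inhibitor of the mitotic kinase PLK1. The set held 10 genes, Mmp2, Mmp3, Mmp9, Mmp10, Mmp11, Mmp13, Mmp14, Timp1, Timp2 and Timp3, which were taken by symbol from the 54752 genes of the count table, and all 10 were found. RNA-seq had been done on NIH/3T3, an established line of mouse embryonic fibroblasts, after 72 h in culture. The vehicle group received PBS, the TGF-β1 + DMSO group received 1 ng/ml TGF-β1 with DMSO, and the TGF-β1 + BI6727 group received 1 ng/ml TGF-β1 with 5 µM BI6727 (Volasertib, a small-molecule PLK1 inhibitor), with 2 libraries in each of the 3 groups. TGF-β1 and DMSO were added together, so that their effects on the difference from vehicle cannot be told apart. Nothing in the sample labels says that the 2 libraries of a group came from separate cultures, and p-values therefore measure only the spread between these libraries, which may be technical.

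Matrix metalloproteinases (MMPs) are zinc-dependent endopeptidases that cut collagens, laminins, fibronectin and proteoglycans outside the cell. Most are secreted as inactive precursors and need their propeptide removed by another protease, such as plasmin, furin or another MMP. Tissue inhibitors of metalloproteinases (TIMPs) bind the active site and block it. Timp2 has a further role, since it bridges the membrane-anchored Mmp14 and the precursor of Mmp2 so that Mmp2 can be activated at the cell surface. In fibroblasts the balance of MMPs and TIMPs is a part of matrix turnover during wound repair and fibrosis, in which TGF-β1 is a main signal. The data give transcript levels only, and neither protein, activation nor activity was measured. In these bulk samples, fewer cells of a type and less RNA per cell cannot be told apart.

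Library totals ran from 18362378 to 24452153 counts. All 9 fibroblast markers checked were above a counts-per-million value (CPM) of 1, with a summed level of 7941 to 10400 CPM per library, of which Vim alone gave 4014 to 5126 CPM. The sum covers opposite moves. Pdgfra, Pdgfrb, Thy1, S100a4 and Col1a2 were lower in all libraries with TGF-β1 than in both vehicle libraries. Vim and Col5a1 were higher, and Col1a1 and Fn1 overlapped. Of the 5 myofibroblast markers, Acta2 was at 92.1 and 100.2 CPM in vehicle, 476 and 473 CPM in TGF-β1 + DMSO, and 348 and 326 CPM in TGF-β1 + BI6727. In the same order, Ccn2 was at 30.9 and 33.2 CPM, 385 and 419 CPM, and 255 and 239 CPM. Postn was at 9.04 and 5.92 CPM, 71.6 and 26.8 CPM, and 14.0 and 11.3 CPM. Tagln and Cnn1 stayed at or under 1.59 and 1.30 CPM. Leukocyte markers, which bear on Mmp9 since it is abundant in those cells, summed to 5.38 to 6.73 CPM over 8 genes, with Adgre1 and Cd3e at 0 counts in every library. The 2 TGF-β1 + DMSO libraries stood farther apart than the other pairs. Over all tested genes, the log2 ratio of replicate 1 to replicate 2 had an SD of 0.38 there, against 0.16 in vehicle and 0.15 in TGF-β1 + BI6727. Among the set, replicate 1 of TGF-β1 + DMSO was higher for Timp3 by 1.66-fold, for Mmp9 by 1.48-fold, for Mmp2 by 1.42-fold and for Mmp14 by 1.41-fold, and replicate 2 was higher for Timp1 by 1.40-fold.

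The 10 genes lie on 7 chromosomes of the mm10 build, and all are annotated as protein-coding. The gelatinases Mmp2 and Mmp9 lie at chr8:92827291-92853420 (plus strand, 3371 exonic bases) and chr2:164940780-164955850 (plus strand, 3539 exonic bases). The membrane-type Mmp14 lies at chr14:54431612-54445364 (plus strand, 5960 exonic bases). Mmp11, which is activated inside the cell by furin, lies at chr10:75923222-75936496 (minus strand, 2778 exonic bases), and 5.58% of its exonic bases overlap Chchd10. Timp1 lies at chrX:20870166-20874735 (plus strand, 888 exonic bases) within the span of Syn1 on the opposite strand, without exonic overlap. Timp2 lies at chr11:118301069-118355740 (minus strand, 3896 exonic bases) and Timp3 at chr10:86300372-86349506 (plus strand, 8144 exonic bases). The strand setting of the counting was not given in the sources used here. As 21.3% of the exonic bases of Timp3 overlap Syn3, reads from these genes could not be told apart there.

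The remaining 3 genes share a cluster on chromosome 9. Mmp13, the main collagenase of rodents for fibrillar collagen, lies at chr9:7272514-7283331 (2673 exonic bases). The stromelysins Mmp3 and Mmp10, which cut many matrix proteins and activate other MMPs, lie at chr9:7445822-7455975 (1801 exonic bases) and chr9:7502352-7510240 (1722 exonic bases). All 3 are on the plus strand. The stromelysins are close paralogs, and 8.39% of the 50-base windows of Mmp3 and 8.37% of those of Mmp10 occur in another gene, so that a small part of their counts could be split between them.

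The sequences upstream of these 3 genes and of Timp1 are shown because they include the 3 genes called higher after TGF-β1 + DMSO and because a motif recurs in the cluster. They are the 120 bases before the RefSeq transcription start in GRCm38.p6, written 5′ to 3′ on the strand of the gene at chr9:7272394-7272513 for Mmp13, chr9:7445702-7445821 for Mmp3, chr9:7502222-7502341 for Mmp10 and chrX:20870046-20870165 for Timp1. Capitals mark TGAGTCA, the consensus of the AP-1 (Fos and Jun) factors, or its reverse complement TGACTCA, and the TATA box letters TATAAA.
Mmp13: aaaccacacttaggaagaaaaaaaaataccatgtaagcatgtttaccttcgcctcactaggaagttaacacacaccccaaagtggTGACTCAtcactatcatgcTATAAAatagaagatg
Mmp3: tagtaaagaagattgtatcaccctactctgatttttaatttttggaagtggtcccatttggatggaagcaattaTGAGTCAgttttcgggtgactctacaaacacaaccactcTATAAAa
Mmp10: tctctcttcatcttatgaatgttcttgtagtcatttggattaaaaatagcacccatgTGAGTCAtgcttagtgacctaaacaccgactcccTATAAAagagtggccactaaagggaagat
Timp1: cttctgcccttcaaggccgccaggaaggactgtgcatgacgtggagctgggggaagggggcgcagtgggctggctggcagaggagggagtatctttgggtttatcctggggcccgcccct

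A promoter sequence was found for 8 of the 10 genes, all but Mmp2 and Mmp9. Searched on both strands in the 250 bases before the start, TGAGTCA occurred in Mmp13 (first base at -35), Mmp3 (-46) and Mmp10 (-63) and in none of the other 5, while 4.46% of 32851 mouse promoters held it. TATAAA occurred in the same 3 genes, at -16, -7 and -29, and in 12.4% of all promoters. The ETS motif CAGGAAG occurred in Mmp3 at -184, in Timp1 at -176 and -100, in Timp3 at -205 and in 10.8% of all promoters. The windows of Mmp13, Mmp3 and Mmp10 were 37.5%, 35.8% and 39.2% G and C, against 65.0% for Timp1. These matches describe the letters in the window. No binding was measured, and the motifs were chosen with the expression values known.

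Levels were compared as normalized CPM, that is, CPM with library sizes scaled by the trimmed mean of M-values (TMM). A gene was called changed at a Benjamini-Hochberg adjusted p below 0.01 in edgeR's quasi-likelihood test together with a fold change above 2. Of the 10 genes, 6 reached 10 CPM in more than 3 libraries and were tested among 9518 genes. The other 4, Mmp3, Mmp9, Mmp10 and Mmp13, were tested in a wider fit of 14604 genes. Mmp9 passed the filter of the wider fit in all 6 libraries, Mmp10 and Mmp13 passed only through the 4 libraries with TGF-β1, and Mmp3 only through the 2 libraries with BI6727.

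**Figure D1:**
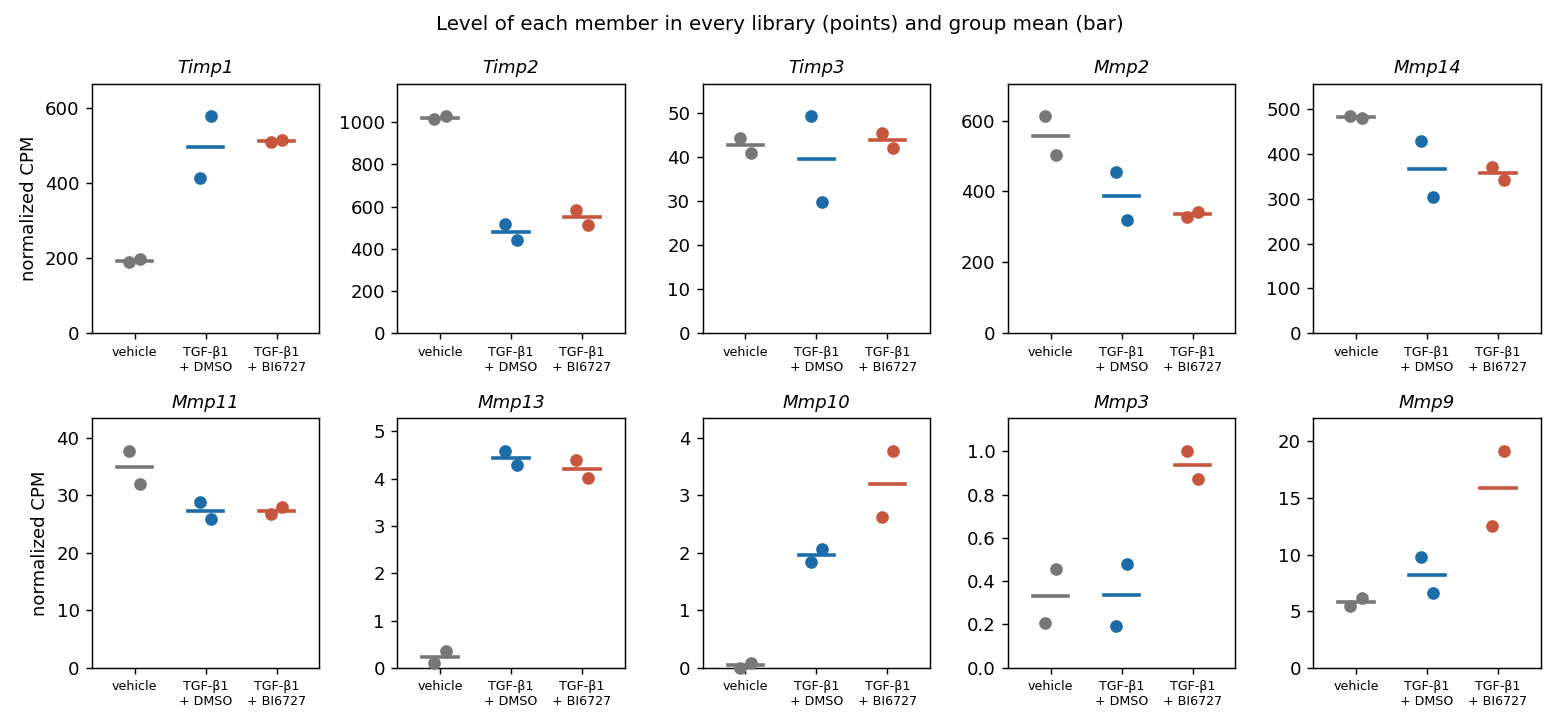
Normalized CPM of the 10 genes in every library (points) with the mean of each group (bars), on a linear axis of its own for each gene. Timp1, Mmp13, Mmp10 and Mmp9 were higher in all 4 libraries with TGF-β1 than in both vehicle libraries, and Timp2, Mmp2, Mmp14 and Mmp11 were lower. Timp3 overlapped between the groups. Mmp3 overlapped between vehicle and TGF-β1 + DMSO and was higher in TGF-β1 + BI6727.

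The inhibitors moved in opposite directions after TGF-β1 + DMSO. Timp1 rose 2.57-fold and Timp2 fell, to a level 2.13-fold lower than in vehicle, whereas the groups overlapped for Timp3. These were the only genes called among the 6 in the main fit, 1 higher and 1 lower, where 2.56% of all tested genes were called higher and 2.53% lower.

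Timp1, a secreted inhibitor of most soluble MMPs that also acts as a growth factor, had levels of 189 and 198 CPM in vehicle, 415 and 579 CPM in TGF-β1 + DMSO, and 510 and 515 CPM in TGF-β1 + BI6727. All 4 libraries with TGF-β1 lay above both vehicle libraries, and the TGF-β1 + BI6727 libraries lay between the 2 TGF-β1 + DMSO libraries. The log2 fold change from vehicle was 1.36 ± 0.16 (SE) for TGF-β1 + DMSO (edgeR adjusted p = 0.00129) and 1.41 ± 0.16 (SE) for TGF-β1 + BI6727 (edgeR adjusted p = 0.00102). Without vehicle replicate 1 or 2 the edgeR adjusted p of the first was 0.0385 or 0.0297, above the 0.01 threshold, with the log2 fold change at 1.32 or 1.39. The call for TGF-β1 + BI6727 was lost on leaving out any of its 4 libraries, with the log2 fold change from 1.37 to 1.44. It was made with only vehicle and TGF-β1 + BI6727 in the fit (log2 fold change 1.405, edgeR adjusted p = 2.32e-13). DESeq2 on all 6 libraries also made it (DESeq2 adjusted p = 1.64e-14). Timp1 has the shortest exonic length of the set, and with a length-dependent scaling of the libraries its log2 fold change was 1.19 for TGF-β1 + DMSO and 1.31 for TGF-β1 + BI6727.

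Timp2, the inhibitor that takes part in Mmp2 activation, had levels of 1016 and 1029 CPM in vehicle, 518 and 442 CPM in TGF-β1 + DMSO, and 585 and 513 CPM in TGF-β1 + BI6727. The vehicle libraries differed by little and stood above all 4 others. Timp2 had a log2 fold change of -1.09 ± 0.12 (SE) for TGF-β1 + DMSO (edgeR adjusted p = 0.00121), which was called. For TGF-β1 + BI6727 against vehicle it was -0.90 ± 0.12 (SE; edgeR adjusted p = 0.00256), which passed the p threshold but not the fold threshold, at a level 1.86-fold lower. The first call was lost without vehicle replicate 1 (edgeR adjusted p = 0.027), without vehicle replicate 2 (0.0252), and without TGF-β1 + DMSO replicate 2, where the log2 fold change was -0.97.

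Timp3, which binds to the extracellular matrix and also inhibits ADAM proteases, was found at 44.5 and 41.0 CPM in vehicle, at 49.3 and 29.7 CPM in TGF-β1 + DMSO, and at 45.6 and 42.1 CPM in TGF-β1 + BI6727. The TGF-β1 + DMSO libraries held both the highest and the lowest value. For TGF-β1 + DMSO over vehicle the log2 fold change was -0.11 ± 0.22 (SE), with a 95% interval from -0.63 to 0.41. Leaving out a single library turned its direction, with a log2 fold change of 0.22 without TGF-β1 + DMSO replicate 2 and -0.53 without replicate 1.

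**Figure D2:**
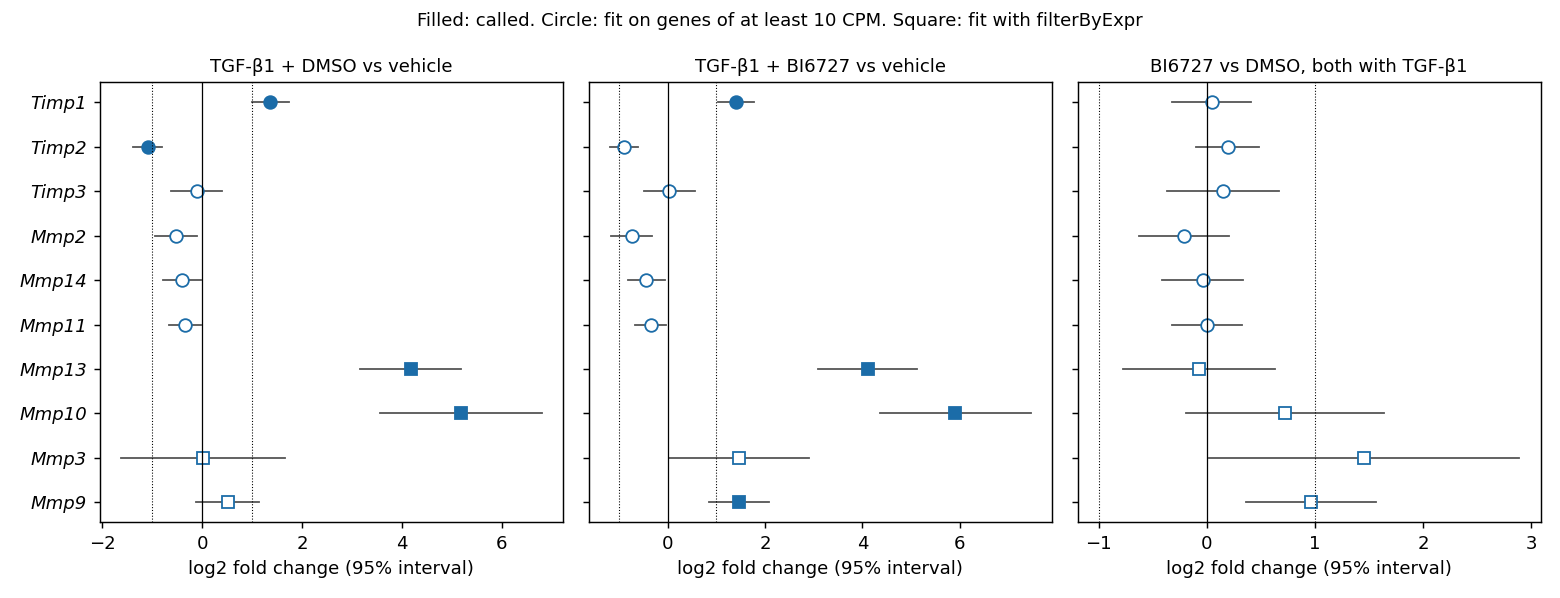
Log2 fold change of each gene (symbol) with its 95% interval (line) in the 3 comparisons, the dotted lines marking a fold change of 2 and each panel having its own axis range. Filled symbols mark calls, which in the left and middle panels include Timp1, Mmp13 and Mmp10, and no gene is filled in the comparison of BI6727 with DMSO.

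The constitutive proteases, which are expressed by most fibroblasts without stimulation, lay lower with TGF-β1 by less than the fold threshold. Mmp2, a gelatinase that cuts basement membrane collagen, was at 613 and 503 CPM in vehicle, 455 and 320 CPM in TGF-β1 + DMSO, and 329 and 342 CPM in TGF-β1 + BI6727. Both vehicle libraries lay above the 4 others. On the log2 scale the difference from vehicle was -0.53 ± 0.18 (SE; edgeR adjusted p = 0.0727) for TGF-β1 + DMSO and -0.73 ± 0.18 (SE; edgeR adjusted p = 0.0241) for TGF-β1 + BI6727, and neither was called. With only vehicle and TGF-β1 + BI6727 in the fit, the edgeR adjusted p of the second was 1.04e-07. DESeq2 on all 6 libraries gave it a DESeq2 adjusted p of 8e-04. In both, the fold change stayed below the threshold.

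Mmp14, the membrane-anchored activator of Mmp2, was at 485 and 481 CPM in vehicle, 429 and 303 CPM in TGF-β1 + DMSO, and 370 and 343 CPM in TGF-β1 + BI6727. The vehicle libraries were nearly equal and again stood above all others. Its log2 fold change was -0.40 ± 0.16 (SE; edgeR adjusted p = 0.113) for TGF-β1 + DMSO and -0.44 ± 0.16 (SE; edgeR adjusted p = 0.0892) for TGF-β1 + BI6727. With only vehicle and TGF-β1 + BI6727 in the fit, the edgeR adjusted p of the second was 6.27e-06. DESeq2 on all 6 libraries gave it a DESeq2 adjusted p of 0.0475. In both, the fold change stayed below the threshold.

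Mmp11 had lower levels, at 37.8 and 32.0 CPM in vehicle, 28.8 and 25.9 CPM in TGF-β1 + DMSO, and 26.8 and 27.9 CPM in TGF-β1 + BI6727. The groups with and without TGF-β1 did not overlap, and those with DMSO and BI6727 did. Against vehicle the log2 fold change was -0.35 ± 0.14 (SE) in both comparisons with vehicle, with edgeR adjusted p = 0.109 for TGF-β1 + DMSO and 0.107 for TGF-β1 + BI6727. With only vehicle and TGF-β1 + BI6727 in the fit, the edgeR adjusted p was 0.0134. Of the 6 genes of the main fit, 5 had no overlap between TGF-β1 + DMSO and vehicle, Mmp2, Mmp11, Mmp14 and Timp2 lower and Timp1 higher. Of all 9518 genes, 62.9% did not overlap in that comparison, 33.1% lower and 29.8% higher. After TGF-β1 + BI6727 the same 5 did not overlap with vehicle, where 76.8% of all tested genes did not. There 1 of the 6, Timp1, was called higher and 0 were called lower, against 2.34% and 2.96% of all tested genes.

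Mmp13 and Mmp10 of the chromosome 9 cluster were close to the floor in vehicle and higher in every library with TGF-β1. Since both genes entered the wider fit only through the libraries in which they were high, its p-values for them are not independent of that filter. A filter on at least 10 counts in total over the 6 libraries, which does not use the groups, is therefore given beside them. In the wider fit 2.75% of all genes were called higher after TGF-β1 + DMSO and 3.23% lower. Mmp13 had 2 and 8 counts in vehicle, 95 and 89 counts in TGF-β1 + DMSO, and 79 and 97 counts in TGF-β1 + BI6727. In normalized terms these were 0.10 and 0.36 CPM, 4.59 and 4.28 CPM, and 4.39 and 4.02 CPM. The treated libraries were all at least as high as 4.02 CPM and overlapped between DMSO and BI6727. Its log2 fold change was 4.18 ± 0.44 (SE; edgeR adjusted p = 0.000384) for TGF-β1 + DMSO and 4.11 ± 0.44 (SE; edgeR adjusted p = 0.000394) for TGF-β1 + BI6727. With the filter on total counts, the edgeR adjusted p was 0.000173 and 0.000176. Both calls were made in all 12 alternative analyses, in which the log2 fold change ran from 3.59 to 5.35 for the first and from 3.52 to 5.28 for the second.

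Mmp10 had 0 and 2 counts in vehicle, 38 and 43 counts in TGF-β1 + DMSO, and 47 and 91 counts in TGF-β1 + BI6727, which correspond to 0 and 0.091 CPM, 1.83 and 2.07 CPM, and 2.61 and 3.77 CPM. The 3 groups did not overlap. With the counts of each group summed, the ratio of TGF-β1 + DMSO to vehicle was 40.3 (95% interval from counting error alone 10.8 to 338), from 81 counts against 2. The ratio of TGF-β1 + BI6727 to vehicle was 67.5 (18.3 to 563), from 138 counts against 2. Both differences were called, with edgeR adjusted p = 0.00159 and 0.000574 in the wider fit and 0.000886 and 0.000271 with the filter on total counts, while their fitted log2 fold changes of 5.18 and 5.90 depend on the prior count and serve as no bound. Leaving out vehicle replicate 1 or 2 raised the first edgeR adjusted p to 0.0199 or 0.0111, with the fitted log2 fold change at 4.34 or 8.33.

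Mmp3 did not share this pattern in TGF-β1 + DMSO. It had 4 and 10 counts in vehicle, 4 and 10 counts in TGF-β1 + DMSO, and 18 and 21 counts in TGF-β1 + BI6727. The first 2 groups covered the same range, from 0.19 to 0.48 CPM, and the TGF-β1 + BI6727 libraries stood above at 1.00 and 0.87 CPM. The log2 fold change of TGF-β1 + DMSO over vehicle was 0.01 ± 0.72 (SE), with a 95% interval from -1.63 to 1.65. At this depth a difference within that interval was not detectable. For TGF-β1 + BI6727 over vehicle it was 1.47 ± 0.63 (SE; edgeR adjusted p = 0.133), which was not called. Mmp3 entered the wider fit only through the TGF-β1 + BI6727 libraries, in which it was high, so this p-value is not independent of that filter. With the filter on total counts, the edgeR adjusted p was 0.188.

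**Figure D3:**
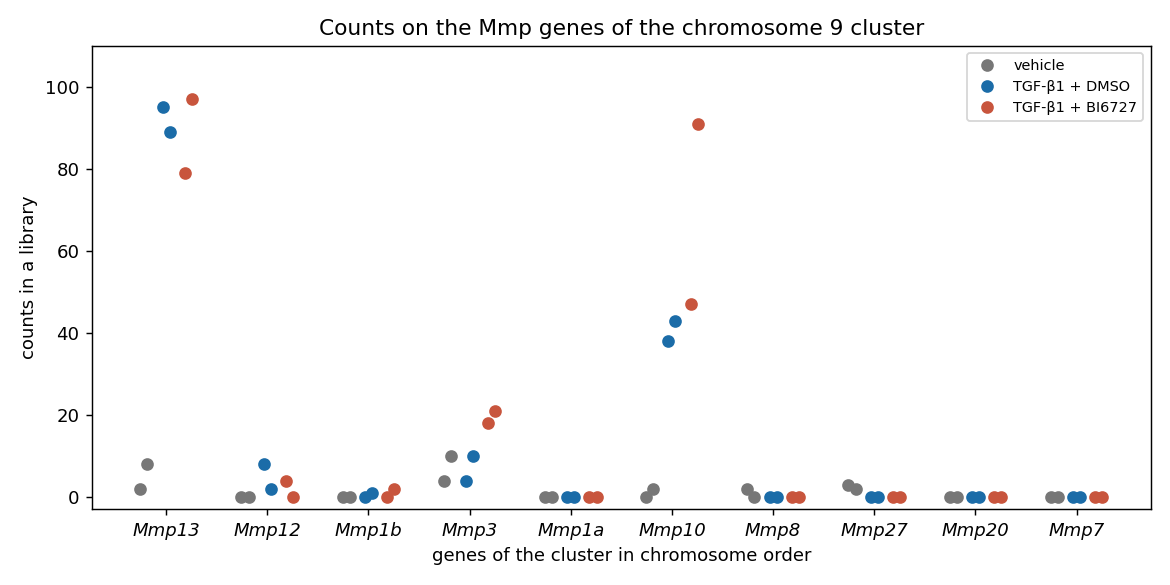
Counts per library (points) on the 10 Mmp genes of the chromosome 9 cluster in chromosome order, coloured by group. Mmp13 and Mmp10 reached 79 to 97 and 38 to 91 counts in the libraries with TGF-β1, Mmp3 reached 18 and 21 counts with BI6727, and the other 7 genes stayed at or under 10 counts in every library.

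The cluster holds 10 Mmp genes over 427 kb. Mmp13 and Mmp10 lie 219 kb apart, and the genes between and beside them had at most 21 counts in any library. Mmp12, the macrophage elastase next to Mmp13, had 0 and 0 counts in vehicle, 8 and 2 in TGF-β1 + DMSO and 4 and 0 in TGF-β1 + BI6727. Mmp27 had 3 and 2 counts in vehicle and 0 in the others, and Mmp1a, Mmp20 and Mmp7 had 0 counts in every library, where 0 counts allow a level of up to 3 counts per library. These counts are too low for a comparison between groups.

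Mmp9, the gelatinase best known from leukocytes and invading cells, had 105 and 135 counts in vehicle, 203 and 137 in TGF-β1 + DMSO and 226 and 463 in TGF-β1 + BI6727. As normalized levels these were 5.45 and 6.14 CPM, 9.80 and 6.60 CPM, and 12.6 and 19.2 CPM. The groups did not overlap and were ordered vehicle, TGF-β1 + DMSO, TGF-β1 + BI6727. Of the 14604 genes, 28.1% lay higher without overlap in TGF-β1 + DMSO than in vehicle and 34.3% in TGF-β1 + BI6727. The log2 fold change over vehicle was 0.51 ± 0.28 (SE; edgeR adjusted p = 0.225) for TGF-β1 + DMSO, which was not called, and 1.47 ± 0.27 (SE; edgeR adjusted p = 0.00606) for TGF-β1 + BI6727, which was called higher, a 2.78-fold rise. In that comparison 2.51% of the 14604 genes were called higher and 3.71% lower. The call was lost on leaving out any of its 4 libraries, with the log2 fold change from 1.13 to 1.74. It was also lost with the replicate number as a block (edgeR adjusted p = 0.0116). DESeq2 on all 6 libraries made the call (DESeq2 adjusted p = 7.3e-06). The summed level of the leukocyte markers was 5.40 to 6.33 CPM in vehicle, 6.13 to 6.50 CPM in TGF-β1 + DMSO and 5.38 to 6.73 CPM in TGF-β1 + BI6727. Of these markers, S100a8 was at 0.62 and 0.64 CPM in vehicle and at 0.92 to 2.21 CPM in the other libraries, and Cd68 at 3.43 and 4.505 CPM and at 2.51 to 3.19 CPM. Their part in the Mmp9 values was not tested.

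The comparison of BI6727 with DMSO, both with TGF-β1, asks whether PLK1 inhibition altered the TGF-β1 response of these genes. None of the 10 was called. The same held for all genes of both fits, so that 0% of genes were called by edgeR in either direction, while 6.68% of the 9518 genes and 7.13% of the 14604 genes had an unadjusted p below 0.05. DESeq2 also called none of the 10, and the share of all genes that it called was not determined. Among the 6 genes of the main fit, all 6 overlapped between the groups, where 34.1% of all tested genes did not overlap. The differences were 0.05 ± 0.16 (SE) for Timp1, 0.19 ± 0.12 for Timp2, 0.15 ± 0.22 for Timp3, -0.21 ± 0.18 for Mmp2, -0.04 ± 0.16 for Mmp14 and 0.00 ± 0.14 for Mmp11 on the log2 scale. Their 95% intervals lay within -0.63 and 0.67, so that a 2-fold difference was outside the interval for each of these 6 genes. Which TGF-β1 + DMSO library was kept decided the sign for some of them. Timp1 was at -0.17 without replicate 1 and 0.29 without replicate 2, Mmp2 at 0.07 and -0.45, and Mmp14 at 0.24 and -0.28.

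The low genes left wider intervals. Mmp13 differed by -0.07 ± 0.31 (SE) on the log2 scale, with an interval from -0.77 to 0.63. Mmp9, Mmp10 and Mmp3 did not overlap between the groups and lay higher with BI6727, in a comparison where 16.7% of the 14604 genes did not overlap in that direction. Mmp9 differed by 0.96 ± 0.26 (SE; edgeR unadjusted p = 0.00574, adjusted p = 0.546), Mmp10 by 0.72 ± 0.40 (SE; edgeR adjusted p = 0.745) and Mmp3 by 1.46 ± 0.63 (SE; edgeR unadjusted p = 0.0468, adjusted p = 0.69). The values of Mmp3 are not independent of the filter of this fit, which it passed only through the libraries with BI6727. With the filter on total counts its edgeR adjusted p was 0.758. Without TGF-β1 + DMSO replicate 1, which held the higher Mmp9 value of that group, the difference in Mmp9 was 1.29. Without replicate 2 it was 0.69. Each of these fits assumes that the lone library varies like the other groups.

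Between genes, levels were compared per length, as RPKM, which is the normalized CPM divided by the exonic length in kilobases. In vehicle the order was Timp2 with a mean of 262 RPKM, Timp1 with 218, Mmp2 with 165, Mmp14 with 81.1, Mmp11 with 12.6, Timp3 with 5.25 and Mmp9 with 1.64, followed by Mmp3, Mmp13 and Mmp10 below 1 RPKM. The libraries of Mmp13 overlapped with those of both Mmp3 and Mmp10, and no other neighbours in this order overlapped. In TGF-β1 + DMSO Timp1 came first with 560 RPKM, ahead of Timp2 with 123, Mmp2 with 115 and Mmp14 with 61.4, and the libraries of Timp2 and Mmp2 overlapped. Mmp13 with 1.66 RPKM and Mmp10 with 1.13 RPKM had passed Mmp3 with 0.187. In TGF-β1 + BI6727 Timp1 was at 577 RPKM, Timp2 at 141, Mmp2 at 99.5 and Mmp14 at 59.9, while Mmp10 with 1.85 RPKM and Mmp13 with 1.57 RPKM overlapped.

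The ratio of Timp1 to Timp2 per length was 0.817 and 0.844 in vehicle, 3.52 and 5.75 in TGF-β1 + DMSO, and 3.83 and 4.40 in TGF-β1 + BI6727. Timp2 was thus the more abundant inhibitor in both vehicle libraries and Timp1 in the 4 others. Timp1 took 28.1% and 30.3% of the summed level of the 10 genes per length in vehicle, 56.4% and 70.2% in TGF-β1 + DMSO, and 63.4% and 64.8% in TGF-β1 + BI6727. The share of Timp2 went the other way, from 34.4% and 35.9% in vehicle to 12.2% to 16.5% in the 4 treated libraries. The 7 proteases together held 36.8% and 33.1% of the sum in vehicle, 26.9% and 17.2% in TGF-β1 + DMSO, and 19.5% and 19.9% in TGF-β1 + BI6727, of which nearly all was Mmp2 and Mmp14.

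**Figure D4:**
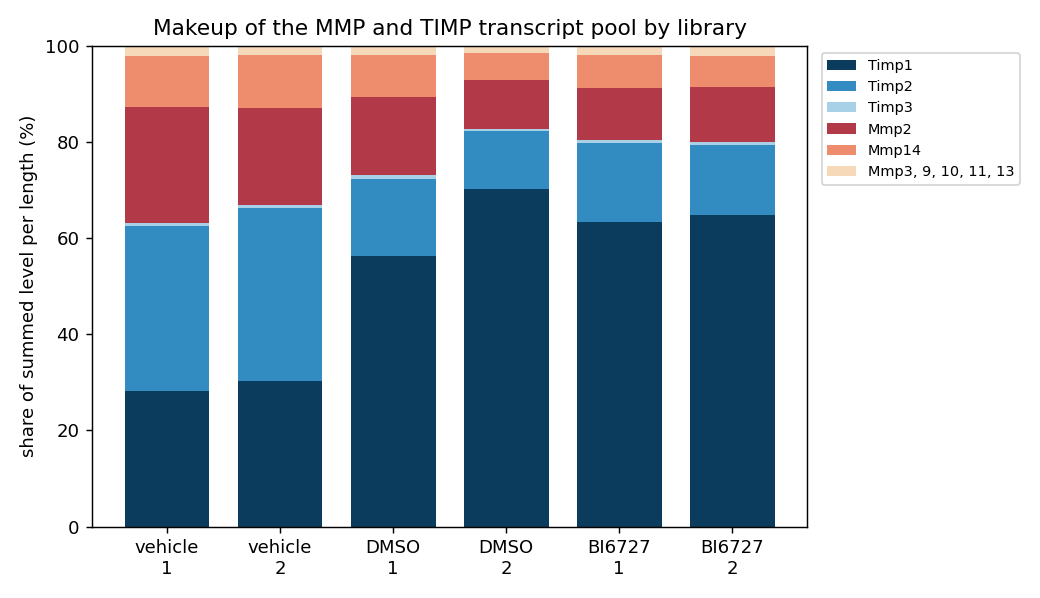
Share of each gene in the summed level per exonic length of the 10 genes (vertical axis, percent) in each of the 6 libraries, with the 5 less abundant proteases drawn together. Timp1 takes 28.1% and 30.3% of the bar in vehicle and 56.4% to 70.2% in the libraries with TGF-β1, and Timp2, Mmp2 and Mmp14 take less there than in vehicle.

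Group means of the protease share were 34.9% ± 2.6 (SD, n = 2) in vehicle, 22.1% ± 6.8 (SD, n = 2) in TGF-β1 + DMSO and 19.7% ± 0.3 (SD, n = 2) in TGF-β1 + BI6727. An exact permutation test of 2 libraries against 2 cannot go below p = 0.333, and none was made. The lower protease share with TGF-β1 rested on Timp1. With Timp1 left out of the sum, the proteases held 49.3%, 59.7% and 54.9% in the 3 groups, which turns the direction. With levels not divided by length the shares were 46.2%, 43.6% and 40.2%, and vehicle and TGF-β1 + DMSO overlapped.

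The genes that activate, inhibit or clear MMPs included several that changed with TGF-β1 in both treated groups. From a list of 17, 10 were tested in the main fit, of which 4 were called higher and 2 lower after TGF-β1 + DMSO, with a median log2 fold change of 0.24 against 0.00 over all tested genes, of which 2.56% were called higher and 2.53% lower. Plau, the urokinase that makes plasmin, a protease that activates several MMP precursors, was called higher in both treated groups. It was at 12.5 and 15.4 CPM in vehicle, 36.2 and 45.6 CPM in TGF-β1 + DMSO and 31.3 and 32.5 CPM in TGF-β1 + BI6727. Its receptor Plaur rose by 1.94 ± 0.13 (SE) on the log2 scale after TGF-β1 + DMSO (edgeR adjusted p = 0.000134).

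Furin, the convertase that removes the propeptides of Mmp14 and Mmp11, rose by 1.12 ± 0.14 (SE; edgeR adjusted p = 0.0019) on the log2 scale. The thrombospondins, matrix proteins that bind MMPs and their clearance receptor, moved apart. Thbs1 rose by 1.99 ± 0.24 (SE; edgeR adjusted p = 0.00143) and Thbs2 had a log2 fold change of -1.99 ± 0.21 (SE; edgeR adjusted p = 0.000823). Cav1, the caveolae protein through which Mmp14 is taken up, was at 269 and 271 CPM in vehicle, 106 and 109 CPM in TGF-β1 + DMSO and 57.0 and 63.0 CPM in TGF-β1 + BI6727, and fell in both comparisons with vehicle. The same 6 genes were called in the same directions after TGF-β1 + BI6727, and none was called between BI6727 and DMSO, where the median of the list was -0.02. Both comparisons with vehicle share the vehicle libraries.

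**Figure D5:**
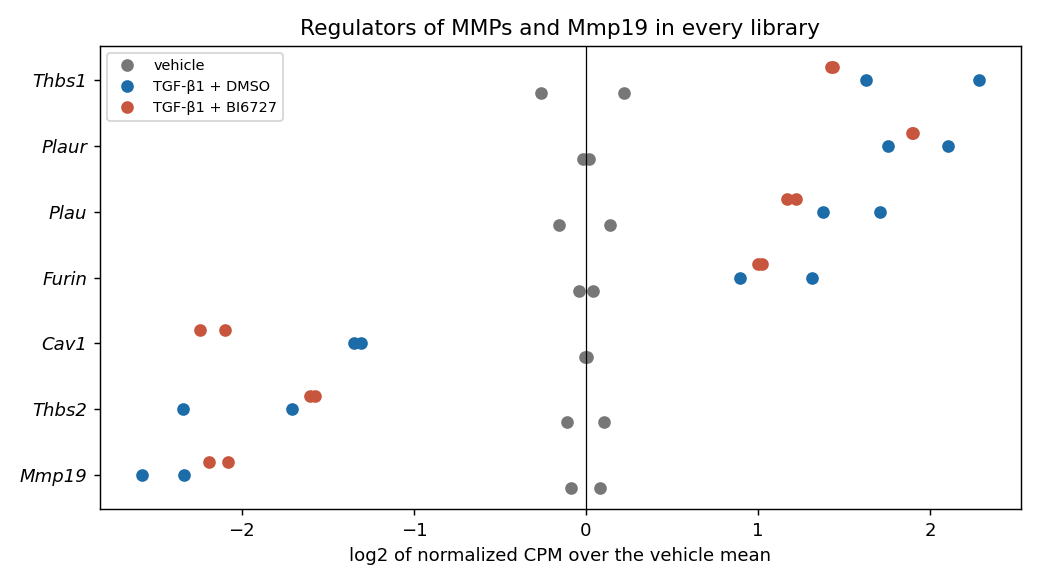
Log2 of normalized CPM over the vehicle mean (horizontal axis) in every library (points) for the 6 called regulators and Mmp19. Thbs1, Plaur, Plau and Furin lie to the right of vehicle and Cav1, Thbs2 and Mmp19 to the left in all 4 libraries with TGF-β1.

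Of the 17 other Mmp and Timp genes of the genome that were listed, 1 passed the filter of the main fit. Mmp19, a secreted protease of basement membrane proteins, was at 85.6 and 76.4 CPM in vehicle, 16.0 and 13.5 CPM in TGF-β1 + DMSO, and 19.1 and 17.8 CPM in TGF-β1 + BI6727. The libraries with TGF-β1 were all far below vehicle. Its log2 fold change was -2.45 ± 0.14 (SE; edgeR adjusted p = 7.69e-05) for TGF-β1 + DMSO and -2.13 ± 0.14 (SE; edgeR adjusted p = 0.000116) for TGF-β1 + BI6727, and 28.3% of its exonic bases overlap other genes. In the wider fit 4 of the 17 were tested, and Mmp16, a membrane-type protease at 1.77 and 1.27 CPM in vehicle and at most 0.290 CPM elsewhere, was called lower after TGF-β1 + BI6727 (log2 fold change -2.63 ± 0.53 SE, edgeR adjusted p = 0.00933) and not after TGF-β1 + DMSO (edgeR adjusted p = 0.0142). As Mmp16 was admitted to that fit by its vehicle libraries, where it was high, these p-values are not independent of the filter. The difference between these comparisons was not called.

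The matrix proteins on which MMPs act did not move together. Of 21 listed, 19 were tested, 0 were called higher and 4 lower after TGF-β1 + DMSO, with a median log2 fold change of -0.08, against 2.56% and 2.53% of all tested genes. The 4 were Dcn, a small proteoglycan that binds collagen and TGF-β1 (-1.97 ± 0.17 SE), the basement membrane proteins Lama4 (-1.87 ± 0.26) and Nid1 (-1.87 ± 0.26), and the collagen Col6a1 (-1.37 ± 0.25). After TGF-β1 + BI6727, 2 were higher, Fbln2 (1.19 ± 0.18 SE) and Lamb1 (1.00 ± 0.15), and 6 were lower, the same 4 with Col6a2 (-1.90 ± 0.24) and Sparc (-1.17 ± 0.14), with a median of -0.60, against 2.34% called higher and 2.96% lower of all tested genes. In the wider fit Col6a2 was called lower after TGF-β1 + DMSO as well (-1.14 ± 0.23 SE; edgeR adjusted p = 0.00891). Nid2, a basement membrane protein, was called lower in that fit after TGF-β1 + BI6727 (-2.13 ± 0.40 SE; edgeR adjusted p = 0.00649). Nid2 levels were 6.75 and 4.19 CPM (vehicle), 2.51 and 2.21 CPM (TGF-β1 + DMSO) and 0.779 and 1.61 CPM (TGF-β1 + BI6727). For Col1a1, the chain of type I collagen that Mmp13 cuts, the levels were 442 and 380 CPM in vehicle, 859 and 447 CPM in TGF-β1 + DMSO and 411 and 416 CPM in TGF-β1 + BI6727, and neither treated group was called against vehicle. None of the 19 was called between BI6727 and DMSO, with a median of -0.17.

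Factors that bind MMP promoters were mostly not called. Of 17 listed, 15 were tested, and 0 were called higher and 2 lower after TGF-β1 + DMSO, the AP-1 subunit Fosl2 (-1.11 ± 0.10 SE; edgeR adjusted p = 0.000517) and the ETS factor Etv1 (-1.36 ± 0.17 SE; edgeR adjusted p = 0.00171), against 2.56% and 2.53% of all tested genes. The same 2 were called lower after TGF-β1 + BI6727. Fos, tested in the wider fit, was at 29.0 and 11.5 CPM in vehicle, 2.03 and 3.27 CPM in TGF-β1 + DMSO and 3.45 and 4.26 CPM in TGF-β1 + BI6727, and its log2 fold change after TGF-β1 + DMSO was -2.92 ± 0.44 (SE; edgeR adjusted p = 0.00245). Of the other AP-1 subunits, Jun differed by -0.08 ± 0.09 (SE), Junb by 0.44 ± 0.15, Fosl1 by 0.34 ± 0.11 and Jund by 0.52 ± 0.16. Fosb differed by 0.77 ± 0.29 (SE) in the wider fit, and none of these was called. Of the 7 AP-1 subunits listed, 0 were called higher in any of the 3 comparisons. Of the 50-base windows of Fosl1, 52.6% occur in another gene. For Jund, 52.6% of the exonic bases overlap another gene, so that the counts of both are less certain.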

How the data were processed

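RNA-seq of 6 NIH/3T3 libraries gave single-end reads of 50 bases. The authors mapped them to mm10 with Subjunc (Subread 1.6.4) and counted them on Gencode M20 genes with featureCounts. The deposited values are raw counts per gene without normalization, and the strand setting was not given in the sources used here. Groups and replicate numbers were taken from the sample titles. The 10 genes, the gene lists and the motifs were chosen with earlier results of these data known.

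Symbols were matched for 54723 of 54752 gene IDs. Group comparisons used the quasi-likelihood test of edgeR 4.0.16 under R 4.3.3, with TMM scaling and a joint fit of the 6 libraries (3 residual degrees of freedom), on genes reaching 10 CPM in over 3 libraries or, for genes below this, on those kept by filterByExpr, and called at a Benjamini-Hochberg adjusted p below 0.01 and a fold change above 2. These thresholds follow the methods of the study, which used DESeq2. Some listed genes are not reported here and were left out of their lists. Other listed genes are named where called in any comparison, and Col1a1 and the uncalled AP-1 subunits were named after their values were seen. SEs were derived from the F statistic. DESeq2 1.42.0, other filters, the replicate block, length-dependent scaling and leaving out each library were alternatives. The fit was tested on simulated data. Library totals were 18362378 to 24452153 counts, and intervals from counts cover counting error only. Promoters are from RefSeq (GRCm38.p6).

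Over the genes of the main fit, replicates in every group differed by more than sampling noise (chi-square per degree of freedom 6.53 to 82.3). Taken over these genes, the spread between libraries, rather than depth, sets the precision of the comparisons. Mmp3, Mmp9, Mmp10 and Mmp13 were not among them, and for Mmp3 and Mmp10 the few counts also limit the precision.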

Additional observations from a re-analysis of the deposited data

How the results depend on the processing

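Without one library at a time, 0 to 1 genes of the main fit were called higher and 0 to 1 lower after TGF-β1 + DMSO, and 0 to 1 higher after TGF-β1 + BI6727. For genes below the 10 CPM filter, 1 to 2 were called higher after TGF-β1 + DMSO, and 0 to 1 between BI6727 and DMSO. With any of the 3 wider filters (filterByExpr, at least 10 counts in total, or at least 1 CPM in 2 libraries), which also test those genes, 3 were called higher after TGF-β1 + DMSO and 4 after TGF-β1 + BI6727, in place of 1 and 1. With no fold minimum, 1 was called lower after TGF-β1 + BI6727, in place of 0. Of all genes in the filterByExpr fit, 2.75% were called higher after TGF-β1 + DMSO and 2.51% after TGF-β1 + BI6727. For the other settings of this paragraph the share of all genes was not determined.

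The correlations of same-numbered deviations were -0.11 (vehicle with TGF-β1 + DMSO), 0.05 (vehicle with TGF-β1 + BI6727) and -0.26 (the treated groups). With 2 libraries in each group, these values cannot decide whether libraries with the same replicate number were paired. The replicate block changed the call of 1 of the 10 genes, Mmp9 for TGF-β1 + BI6727 over vehicle (log2 fold change 1.47, edgeR adjusted p = 0.0116). Under it Timp1 was at 1.35 and Timp2 at -1.10 for TGF-β1 + DMSO.

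The sign changed for values close to 0. Mmp11 between BI6727 and DMSO was at 0.0070 with filterByExpr, 0.0042 with at least 10 counts, 0.0061 with 1 CPM, 0.0016 with only the 2 groups, 0.0032 with the replicate block, 0.024 with length offsets and 0.033 with both, and Mmp3 for TGF-β1 + DMSO was at -0.086 with length offsets. Without one library at a time, Mmp3 for TGF-β1 + DMSO ran from -0.76 to 0.69, Timp3 from -0.53 to 0.22 (TGF-β1 + DMSO over vehicle), -0.19 to 0.56 (BI6727 over DMSO) and -0.020 to 0.091 (TGF-β1 + BI6727 over vehicle), and, between BI6727 and DMSO, Mmp11 from -0.089 to 0.081, Mmp2 from -0.45 to 0.071, Mmp14 from -0.28 to 0.24 and Timp1 from -0.17 to 0.29.

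The protease share was 46.2%, 43.6% and 40.2% (vehicle, TGF-β1 + DMSO, TGF-β1 + BI6727) without division by length, 20.3% in TGF-β1 + BI6727 over all measured Mmp and Timp genes, and 49.3%, 59.7% and 54.9% without Timp1. The cause of these changes was not tested, apart from the sums that leave a gene out by construction. Over all alternatives, 373 log2 fold changes of the 10 genes kept their sign and side of the threshold, 16 lost and 1 gained a call, and 21 changed sign.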

Other observations

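The genes whose levels over the 6 libraries were most like those of each gene of the main fit were found by the root mean square difference of log2 levels relative to the vehicle mean. For Timp1 they were Nabp1 (0.0456) and Clcf1 (0.073), for Timp2 Tmem106b (0.0541) and Dync2li1 (0.0663), and for Timp3 Gm13991 (0.0505) and Atg2b (0.0596). For Mmp2 they were Masp1 (0.0656) and Mbd6 (0.0802), for Mmp14 Zhx3 (0.0121) and Pds5b (0.0433), and for Mmp11 Tor1aip1 (0.0212) and Fam234a (0.0311). These are descriptions over 6 libraries of 3 groups, which share the same depth and scaling.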
